A study of Mus musculus with 6 samples.

Results

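The genes described here make up the enzymatic defence against peroxides, superoxide and electrophiles. They were chosen by symbol: the cytosolic and mitochondrial glutathione transferases (Gst), the glutathione peroxidases (Gpx), the peroxiredoxins (Prdx), the superoxide dismutases (Sod), the thioredoxins (Txn) and their reductases (Txnrd), together with Nfe2l2, Keap1, Nqo1, Hmox1, Gclc, Gclm, Gsr, Gss, Srxn1 and Cat. These rules took 54 protein-coding genes of the 55487 gene identifiers in the count table. A further symbol, the processed pseudogene Gstm2-ps1, matched the pattern and was left out.

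Bulk RNA-sequencing of polyA RNA was available for 6 cultures of C57BL/6 mouse skin cells that the labels call endothelial cells (ECs), isolated with CD31 MicroBeads from skin of mice aged 2 to 3 months, with 4 to 6 mice per isolation. Medium with 5 mmol/L glucose (normal glucose) was given to 3 cultures and medium with 20 mmol/L (high glucose) to the other 3, for 48 hours, the latter meant to mimic the hyperglycaemia of diabetes. All 6 cultures share the genotype and the isolation method, and none of them is an osmotic control. Legends for these samples count n by mice, 3 per group, but it is not stated which mice or isolations gave which culture, so P values measure the spread between these samples, which may in part be technical.

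NRF2, encoded by Nfe2l2, is the transcription factor that switches on many of these genes. KEAP1 holds it for degradation until oxidants or electrophiles modify KEAP1, and NRF2 then binds antioxidant response elements together with a small MAF partner. Glutathione, built from glutamate, cysteine and glycine, is spent by the peroxidases and transferases and restored by glutathione reductase, while peroxiredoxins are restored by the thioredoxins. In the endothelium these systems limit the damage done by peroxides and superoxide from mitochondria and oxidases.

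The antioxidant response element has the core TGACNNNGC. This core was searched on both strands in the 250 bases before each RefSeq gene start (build GRCm38.p6), and 47 of the 54 genes had such a window. A gene with several starts has several windows and was counted if any window held the core. It was present in 8 of these 47 genes (17.0%), against 3112 of 27025 genes with a window (11.5%). Counted by window, it was in 8 of 60 (13.3%), against 3338 of 32851 (10.2%). Those 8 stretches are shown because they hold the letters of the element through which NRF2 acts, each on the strand where the core, in capitals, reads forward.

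Gclm, chr3:122245413-122245441, minus strand: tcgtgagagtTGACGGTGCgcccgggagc
Gsta3, chr1:21240454-21240482, plus strand: aactcaggcaTGACATTGCatttttcttc
Gstm5, chr3:107895802-107895830, plus strand: caccgcccacTGACCACGCggagggcggg
Gstm7, chr3:107931725-107931753, minus strand: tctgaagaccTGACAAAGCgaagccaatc
Nfe2l2, chr2:75704885-75704913, minus strand: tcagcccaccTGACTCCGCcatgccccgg
Prdx1, chr4:116685456-116685484, minus strand: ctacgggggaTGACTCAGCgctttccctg
Sod1, chr16:90220696-90220724, minus strand: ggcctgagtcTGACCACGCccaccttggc
Txnrd1, chr10:82859104-82859132, minus strand: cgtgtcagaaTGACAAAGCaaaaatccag

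The core in the Prdx1 window, which begins with TGACTCA, also spells the element of AP-1 factors. Of the genes with a window that rose in high glucose, 0 of 5 held the core. Among those that fell it was 2 of 12, namely Gstm7 and Prdx1, and among those not called it was 6 of 23. The cores of Gstm7 and Txnrd1 lie inside the annotated gene, each before a RefSeq start downstream of the first. The Gstm7 window at chr3:107931818-107932067, directly before the annotated gene, held none. A match of letters is a description and not evidence of binding, and many response elements lie farther from the start. The genes without a window were Gclc, Gsr, Gsta4, Gstt2, Hmox1, Prdx6 and Sod3.

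Sample totals ranged from 120192466 to 146881356 counts. The 10 genes with the most counts held 7.86% to 8.18% of the counts in normal glucose and 11.4% to 11.6% in high glucose, and the biological coefficient of variation was 8.44%. Some but not all endothelial markers were near 0 despite the label. Pecam1, which encodes CD31, had 12 to 19 counts per culture in normal glucose and 9 to 18 in high glucose. Tie1, Cldn5 and Robo4 had at most 4 counts in any culture. Of 14 endothelial marker genes, 10 could be tested, 2 rose and 3 fell. The summed level of the 14 ranged from 216 to 243 CPM (counts scaled by TMM to a common library total) in normal glucose and from 194 to 200 CPM in high glucose. Pecam1, Tie1, Cldn5 and Robo4 held little of that sum, which came from other genes of the list. All 14 fibroblast markers were present and called, 11 higher and 3 lower, with sums of 39450 to 42713 CPM against 71787 to 76692 CPM. All 10 proliferation markers fell, with sums of 261 to 273 CPM against 156 to 160 CPM. Of the 10 mural cell markers 9 could be tested, of which 2 rose and 4 fell, and their sums were 1190 to 1275 CPM against 1079 to 1149 CPM. Macrophage markers summed to 8.61 to 9.91 CPM against 5.86 to 6.77 CPM, with 0 higher and 3 lower among 5 tested of 10, C1qb at 0 counts in every culture and Ptprc and Adgre1 at 0 in all but 1 culture each. Keratinocyte markers summed to 6.29 to 7.15 CPM against 6.17 to 6.62 CPM, with 1 higher and 1 lower among 5 tested of 10. Over all tested genes 16.9% were called higher and 14.5% lower. Shares among the tested markers were 20.0% and 30.0% for endothelial, 22.2% and 44.4% for mural, and 20.0% and 20.0% for keratinocyte genes. They were 78.6% and 21.4% for fibroblast, 0% and 60.0% for macrophage, and 0% and 100% for proliferation genes. Where these lists moved with glucose, their part in the results for the defence genes was not tested. In a bulk culture, fewer cells of a type and less RNA per cell cannot be told apart.

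Of the 54 genes, 47 passed the filter on low counts and were tested with edgeR's quasi-likelihood test among 19015 genes. In high glucose 6 rose (Gpx3, Sod2, Gsr, Gstm2, Gstt1 and Gstm1) and 15 fell (Gsto1, Gsta4, Gsto2, Hmox1, Gstm7, Nqo1, Prdx6, Gss, Gstp2, Gstp1, Gpx1, Prdx1, Gpx4, Gstk1 and Txn2), at an adjusted P value under 0.05. Of the tested defence genes 12.8% were therefore higher and 31.9% lower, beside 16.9% and 14.5% of all tested genes. The median log2 fold change was -0.052 over the 47 genes and 0.0062 over all tested genes. With only library totals as the scale, 2 defence genes rose and 23 fell, while the median of all genes moved to -0.11 and that of the defence genes to -0.17.

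All 21 called genes had no overlap between the cultures of the groups. In 9 genes every high glucose culture lay above every normal glucose culture, and in 18 every one lay below, which is 19.1% and 38.3% of those tested, beside 25.1% and 21.3% of all tested genes. A further 6 of these 27 genes did not pass the test: Keap1, Txnrd1 and Txnrd2 on the higher side and Nfe2l2, Prdx3 and Srxn1 on the lower side. An exact permutation test of a single gene cannot go below 0.1 with 3 cultures against 3. Among well expressed genes (mean log2 CPM of 5 or more), 4 of 28 defence genes rose and 8 fell, and of 5831 such genes in all 25.3% rose and 14.8% fell.

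**Figure D1:**
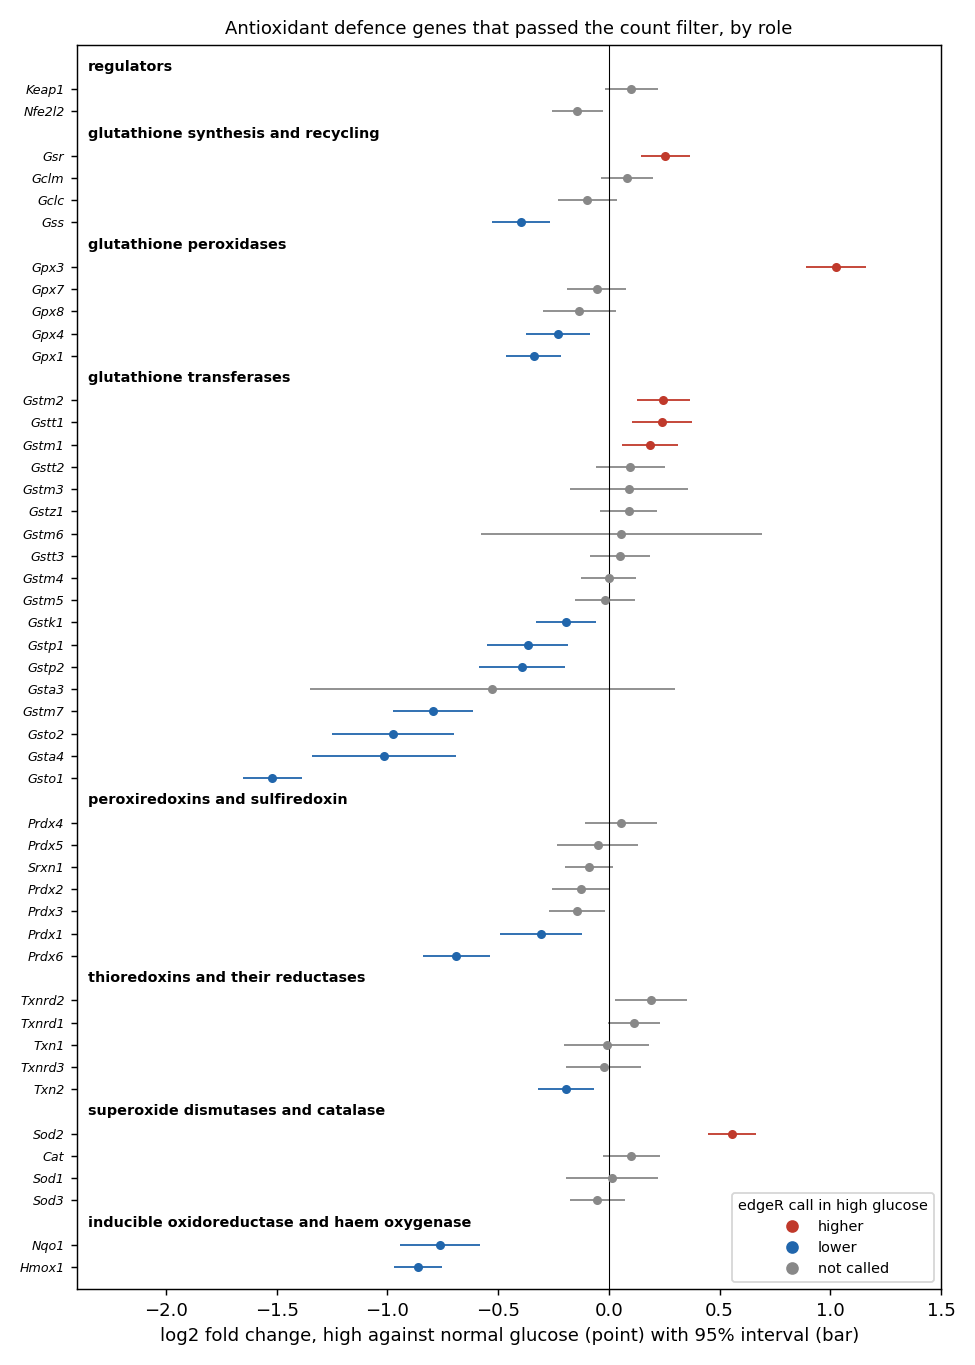
Log2 fold change of each tested defence gene in high against normal glucose (points) with its 95% interval (bars), grouped by role and coloured by the call of edgeR's test. Gpx3 at 1.03 and Sod2 at 0.56 lie farthest to the right and Gsto1 at -1.52 farthest to the left, while both regulators, Keap1 and Nfe2l2, lie near 0.

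Neither regulator of the pathway passed the test. Nfe2l2 was measured at 201, 206 and 204 CPM under normal glucose and 176, 193 and 186 CPM under high glucose. Each high glucose value lay below each normal glucose value, but the difference was small (log2 fold change -0.14, 95% interval -0.26 to -0.027, adjusted P = 0.0612). The call depended on the setting: Nfe2l2 passed with DESeq2 (adjusted P = 0.0271), with DESeq2's size factors in edgeR (0.0461) and without normal glucose replicate 1 (0.0212), as set out with the other settings. Keap1, the adaptor that delivers NRF2 to a ubiquitin ligase, had 88.5, 87.8 and 95.9 CPM under normal glucose and 97.05, 98.3 and 96.7 CPM under high glucose. Its cultures did not overlap between the groups, with the closest values 95.9 and 96.7 CPM, and it did not pass the test (log2 fold change 0.10, 95% interval -0.015 to 0.22, adjusted P = 0.170).

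Hmox1 and Nqo1, both widely used as readouts of NRF2, fell. Hmox1 (ENSMUSG00000005413, chr8:75093621-75100589), which encodes the inducible haem oxygenase that opens the haem ring, had 544, 519 and 535 CPM under normal glucose and 296, 286 and 298 CPM under high glucose. Its level in high glucose was 1.82-fold lower (log2 fold change -0.86 ± 0.049 (SE), adjusted P = 7.83e-07). Nqo1 (ENSMUSG00000003849, chr8:107388225-107403206), a quinone reductase that uses NADH or NADPH, was far less abundant per kb of exon (6.26 against 304 CPM per kb in normal glucose) and had 9.36, 9.85 and 9.94 CPM under normal glucose and 5.53, 6.22 and 5.45 CPM under high glucose. It was 1.70-fold lower (log2 fold change -0.76 ± 0.081 (SE), adjusted P = 5.80e-05). In both genes every high glucose culture lay well below the lowest normal glucose culture.

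The enzymes that make and recycle glutathione did not move one way. Gclc, the catalytic subunit of the rate-limiting glutamate-cysteine ligase, had 26.9, 30.7 and 28.8 CPM under normal glucose and 27.2, 27.4 and 26.3 CPM under high glucose. Gclm, its modifier subunit, had 118, 115 and 111 CPM under normal glucose and 120.3, 127 and 118 CPM under high glucose. Neither passed the test, and in both the groups overlapped (log2 fold change -0.098, 95% interval -0.23 to 0.036, adjusted P = 0.246 for Gclc, and log2 fold change 0.083, 95% interval -0.034 to 0.20, adjusted P = 0.259 for Gclm). Gss, the synthetase that adds glycine, had 29.8, 27.6 and 30.5 CPM under normal glucose and 22.6, 21.3 and 22.9 CPM under high glucose. All of its high glucose values were lower, and Gss fell (log2 fold change -0.40 ± 0.059 (SE), adjusted P = 5.68e-04). Gsr, the reductase that restores oxidized glutathione with NADPH, rose 1.19-fold (log2 fold change 0.25 ± 0.049 (SE), adjusted P = 0.00303). The Gsr values were 26.8, 27.6 and 26.99 CPM under normal glucose and 31.7, 32.3 and 33.1 CPM under high glucose, so that the lowest high glucose culture stood above the highest normal glucose culture. The exons of Gss overlap those of Acss2 on the opposite strand (395 bases), and nothing states that strand was used in counting. Exons of Keap1 (with Gm16754) and Gclm (with Gm17494) overlap opposite-strand genes likewise. Gsr was no longer called when only library totals were used (adjusted P = 0.0510).

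Of the 5 tested glutathione peroxidases of 8, the secreted Gpx3 rose, the cellular Gpx1 and Gpx4 fell, and Gpx7 and Gpx8 did not pass the test. The shares were 20.0% higher and 40.0% lower, beside 16.9% and 14.5% of all tested genes. Gpx3 (ENSMUSG00000018339, chr11:54902453-54910377), the secreted peroxidase found in plasma, rose 2.04-fold, the largest rise of the 47 tested defence genes (log2 fold change 1.03 ± 0.061 (SE), adjusted P = 1.04e-06). Its values were 691, 606 and 635 CPM under normal glucose and 1256, 1346 and 1328 CPM under high glucose, and the groups were far apart. Gpx1, the cytosolic and mitochondrial enzyme, had 123, 115 and 129 CPM under normal glucose and 98.3, 96.01 and 96.04 CPM under high glucose. Gpx1 fell in high glucose (log2 fold change -0.34 ± 0.055 (SE), adjusted P = 9.94e-04). Gpx4, which reduces lipid peroxides in membranes and guards against ferroptosis, had 235, 203 and 232 CPM under normal glucose and 192, 183 and 196 CPM under high glucose. The highest high glucose value and the lowest normal glucose value of Gpx4 were close, at 196 and 203 CPM (log2 fold change -0.23 ± 0.065 (SE), adjusted P = 0.0211). The Gpx4 call was lost without normal glucose replicate 3 (adjusted P = 0.0648), high glucose replicate 1 (0.0528) or high glucose replicate 2 (0.0687). Of the 75-base words in its transcripts 29.8% also occur in the pseudogene Gpx4-ps2, so its counts may be shared. Gpx7 and Gpx8, which sit in the endoplasmic reticulum, had overlapping groups and did not pass the test (log2 fold change -0.055, 95% interval -0.19 to 0.079, adjusted P = 0.528 for Gpx7, and log2 fold change -0.13, 95% interval -0.30 to 0.032, adjusted P = 0.203 for Gpx8).

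Gpx2 had 2 counts in normal glucose replicate 1 and 0 elsewhere, and Gpx5 and Gpx6, known from the epididymis and olfactory epithelium, had 0 counts in all 6 cultures, which allows up to 3 counts or between 0.0211 and 0.0258 CPM per culture. The other genes not tested were Gsta1, Gsta2, Gstp3 and Gstt4, each below 0.1 CPM in every culture. For Gsta2 the counts were 10, 6 and 6 under normal and 1, 0 and 0 under high glucose. Over the whole table a count of 4 was more frequent than a count of 3 (4874 against 4716 entries), so both reads of a pair may have been counted, and low counts and floors may then stand for fewer molecules.

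**Figure D2:**
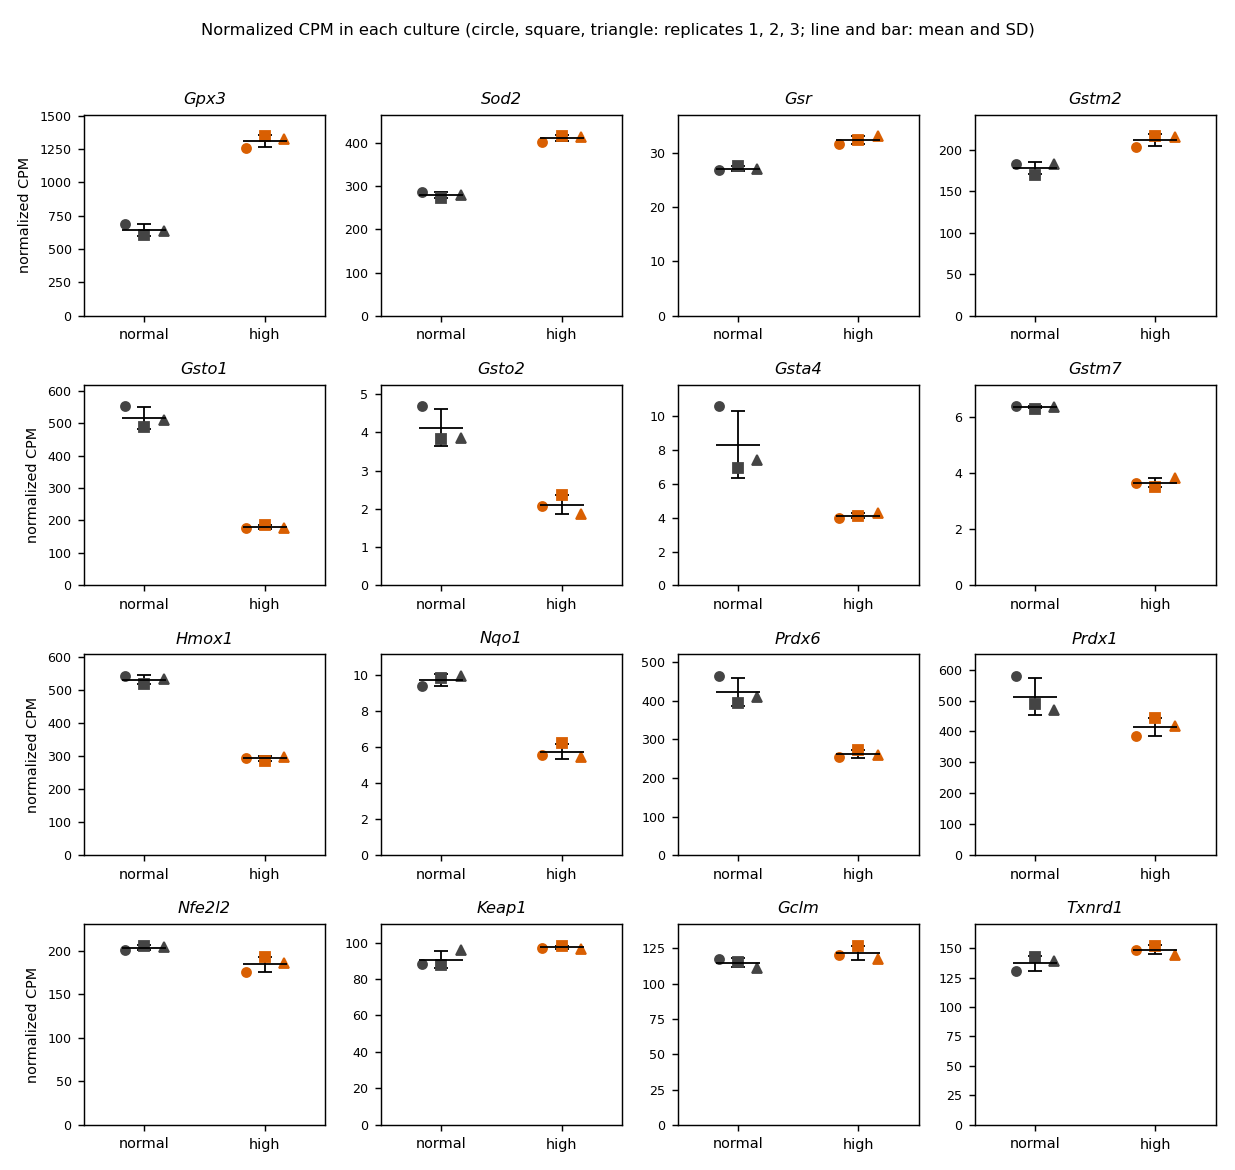
Normalized CPM (vertical axes, from 0) in each of the 3 normal and 3 high glucose cultures for 16 defence genes, with the mean (line) and SD (bar) of each group. The groups are far apart for Gpx3, Sod2, Gsto1, Hmox1 and Prdx6, close for Prdx1, Nfe2l2 and Keap1, and overlapping for Gclm.

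The glutathione transferases, which join glutathione to electrophiles, held the largest fall. Gsto1 (ENSMUSG00000025068, chr19:47854970-47864790), an omega class enzyme that reduces dehydroascorbate and removes glutathione from proteins, had 552, 488 and 509 CPM under normal glucose and 178, 187 and 176 CPM under high glucose. Its level was 2.87-fold lower in high glucose, larger than any other change among the 47 tested genes (log2 fold change -1.52 ± 0.060 (SE), adjusted P = 7.22e-08). Its neighbour Gsto2, with 743 bases between the genes on the same strand, fell as well, from a much lower level per exon length (log2 fold change -0.97 ± 0.12 (SE), adjusted P = 2.02e-04). The Gsto2 values were 4.69, 3.84 and 3.86 CPM under normal glucose and 2.08, 2.37 and 1.87 CPM under high glucose, again with no overlap.

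Of the 18 tested transferases, 3 rose (16.7%), 7 fell (38.9%) and 8 were not called, beside 16.9% higher and 14.5% lower among all tested genes. Gsta4, an alpha class enzyme that conjugates the lipid peroxidation product 4-hydroxynonenal, had 10.6, 6.93 and 7.43 CPM under normal glucose and 3.97, 4.09 and 4.28 CPM under high glucose. Normal glucose replicate 1 was the highest by a wide margin, and Gsta4 was still lower without it (log2 fold change -0.82). With all 6 cultures the fall was 2.02-fold (log2 fold change -1.02 ± 0.15 (SE), adjusted P = 4.68e-04). Gstp1 and Gstp2, pi class neighbours on chromosome 19, fell together (log2 fold change -0.37, adjusted P = 0.00706 for Gstp1, and log2 fold change -0.39, adjusted P = 0.00648 for Gstp2). Gstp1 had 191, 148 and 169.9 CPM under normal glucose and 129.9, 135 and 130.3 CPM under high glucose, and Gstp2 had 32.6, 24.9 and 28.8 CPM under normal glucose and 22.4, 22.1 and 21.2 CPM under high glucose. Because 44.9% of the 75-base words of Gstp2 also occur in Gstp1, the split of counts between them is uncertain and they are not independent. Gstk1, the kappa class enzyme of mitochondria and peroxisomes, had 19.7, 18.7 and 19.2 CPM under normal glucose and 15.98, 16.5 and 17.8 CPM under high glucose. This narrow difference passed with all 6 cultures (log2 fold change -0.19 ± 0.061 (SE), adjusted P = 0.0332) but not without normal glucose replicate 3 (adjusted P = 0.0662), high glucose replicate 1 (0.110) or high glucose replicate 2 (0.0739), nor when replicate number entered as a block (0.0599).

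The mu class genes lie side by side within 149074 bases of chromosome 3 (chr3:107895821-108044894), and of these 7 genes 2 rose, 1 fell and 4 were not called. The shares were 28.6% higher and 14.3% lower, beside 16.9% and 14.5% of all tested genes. Gstm7 fell, with 6.38, 6.30 and 6.34 CPM under normal glucose and 3.64, 3.52 and 3.81 CPM under high glucose and very little spread within each group (log2 fold change -0.79 ± 0.081 (SE), adjusted P = 4.27e-05). Gstm2 rose 1.19-fold, with 183, 169.9 and 182 CPM under normal glucose and 204, 216 and 215 CPM under high glucose (log2 fold change 0.25 ± 0.053 (SE), adjusted P = 0.00571). Gstm1, another mu class enzyme, had 78.5, 82.8 and 85.3 CPM under normal glucose and 89.6, 92.5 and 98.4 CPM under high glucose. Its small rise (log2 fold change 0.19 ± 0.057 (SE), adjusted P = 0.0307) was lost when any 1 of the 6 cultures was left out, with adjusted P values from 0.0539 to 0.213. The remaining mu genes, Gstm3, Gstm4, Gstm5 and Gstm6, were not called, with log2 fold changes of 0.092, -0.0013, -0.018 and 0.057. Counts of Gstm1 may be shared with Gstm2-ps1, as 7.51% of its 75-base words occur there. With library totals as the scale Gstm1 and Gstm2 were no longer called (adjusted P = 0.354 and 0.0664), whereas Gstm7 was.

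The theta class gene Gstt1 rose 1.18-fold, with 18.8, 18.99 and 21.2 CPM under normal glucose and 23.1, 22.8 and 23.7 CPM under high glucose (log2 fold change 0.24 ± 0.061 (SE), adjusted P = 0.0129). This call was lost without high glucose replicate 1 (adjusted P = 0.0621) or high glucose replicate 3 (0.0886), and with library totals as the scale (0.126). Its neighbours Gstt2 and Gstt3 on chromosome 10 and the zeta class gene Gstz1, which acts in tyrosine breakdown, were not called, with log2 fold changes of 0.096, 0.050 and 0.090. Gsta3 was near the detection limit, between 0.0742 and 0.168 CPM, and its interval was wide (log2 fold change -0.53, 95% interval -1.35 to 0.30, adjusted P = 0.314).

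CPM per kb of exon was computed with the union of exons over all annotated transcripts of a gene. Comparisons of levels between genes depend on that length. On this scale the make-up of the transferases shifted. Gsto1 held 38.8% ± 0.575 (SD, n = 3) of the summed CPM per kb of the 22 transferases in normal glucose and 18.4% ± 0.480 in high glucose. Gstm2 went from 16.2% ± 0.514 to 26.0% ± 0.301 and held the largest share on this scale, and Gstm1 went from 8.52% ± 0.788 to 13.1% ± 0.494. Gstp1 held a similar share in both, 16.6% ± 1.08 and 17.6% ± 0.295. Shares within a family add to a fixed total, so that a fall of Gsto1 raises the shares of the others. Summed over the family, transferase CPM had a mean of 1167 ± 71.7 in normal and 825 ± 16.7 in high glucose, with no overlap (exact permutation test, two-sided, p = 0.1, the smallest it allows). Nearly all of that difference lay in Gsto1, whose mean CPM was 516 in normal and 180 in high glucose. The sum is therefore not a fall of the family at large.

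**Figure D3:**
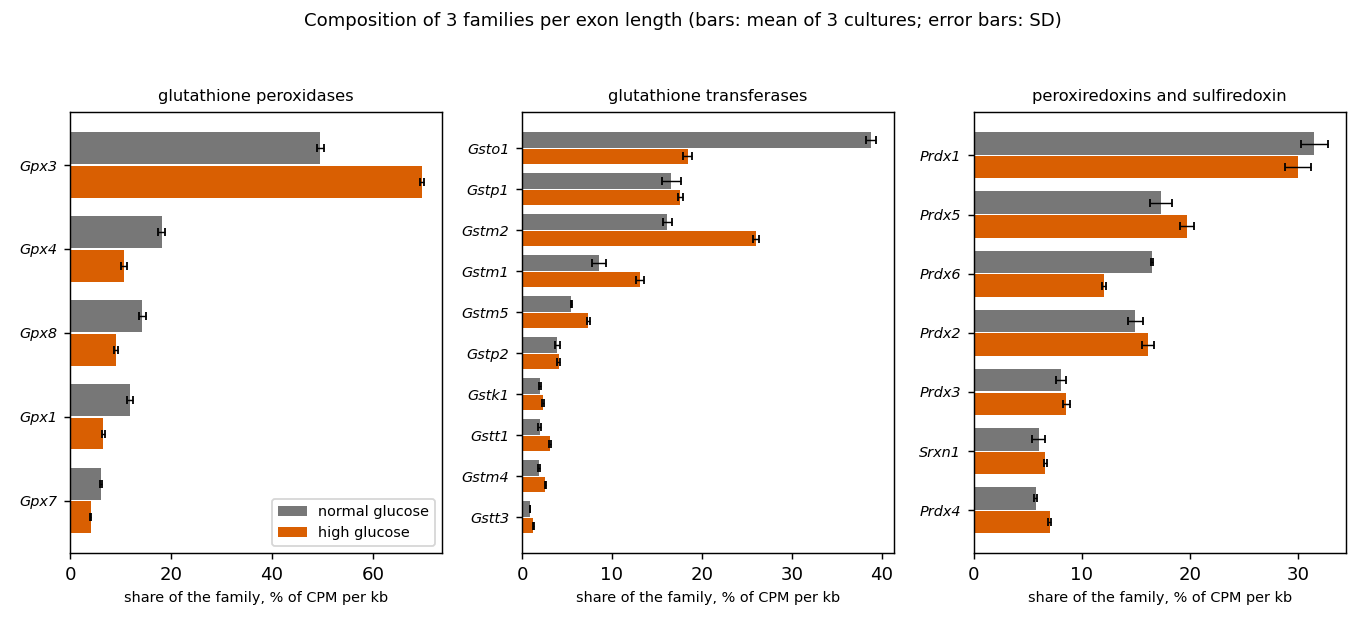
Share of each gene (horizontal axes, % of the family's summed CPM per kb of exon) in the glutathione peroxidases, the glutathione transferases (genes above 1% on average) and the peroxiredoxins with sulfiredoxin, as the mean of 3 cultures with SD. Gpx3 grows from 49.6% to 69.8% of the peroxidases, and Gsto1 shrinks from 38.8% to 18.4% of the transferases.

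Of the 6 peroxiredoxins 2 fell and 0 rose. Counted with sulfiredoxin, the shares were 0% higher and 28.6% lower, beside 16.9% and 14.5% of all tested genes. Prdx6 (ENSMUSG00000026701, chr1:161240112-161251219), the peroxiredoxin that uses glutathione in place of thioredoxin and repairs oxidized phospholipids, had 465, 396 and 409 CPM under normal glucose and 254, 274 and 259.8 CPM under high glucose. All high glucose cultures lay far below the normal ones, a 1.61-fold difference (log2 fold change -0.69 ± 0.068 (SE), adjusted P = 3.28e-05). Prdx1, the abundant cytosolic enzyme, had 579.8, 488 and 471 CPM under normal glucose and 386, 443 and 416 CPM under high glucose. Here the spread was large beside the gap between the groups (log2 fold change -0.31 ± 0.083 (SE), adjusted P = 0.0182), and the call was lost without high glucose replicate 1 (adjusted P = 0.0683). Prdx2, Prdx3, Prdx4 and Prdx5 did not pass the test, with log2 fold changes of -0.13, -0.14, 0.056 and -0.051. Among these, mitochondrial Prdx3 had no overlap between groups, with 59.6 to 67.7 CPM in normal and 57.2 to 57.7 CPM in high glucose, and it was called lower in 6 of 17 alternative settings, DESeq2 among them (adjusted P = 0.0448). Prdx5 shares 409 exonic bases with Trmt112 and Prdx2 shares 173 with Junb, both on the opposite strand. Srxn1, the sulfiredoxin that revives overoxidized peroxiredoxins and a well known NRF2 target, had 87.8, 88.97 and 92.9 CPM under normal glucose and 83.3, 84.7 and 85.3 CPM under high glucose. The Srxn1 groups did not overlap, but the difference was small and not called (log2 fold change -0.091, 95% interval -0.20 to 0.018, adjusted P = 0.189).

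The thioredoxin arm showed a single call. Txn1, the cytosolic thioredoxin, had 179.6, 137 and 149.6 CPM under normal glucose and 153, 158 and 152 CPM under high glucose, with all high glucose values inside the normal range (log2 fold change -0.010, 95% interval -0.20 to 0.18, adjusted P = 0.944). Txn2, its mitochondrial counterpart, had 79.04, 69.9 and 75.9 CPM under normal glucose and 66.00, 65.04 and 65.7 CPM under high glucose. That difference was called (log2 fold change -0.19 ± 0.057 (SE), adjusted P = 0.0261) but lost without normal glucose replicate 3 or any 1 of the high glucose replicates (adjusted P from 0.0616 to 0.0723). Txnrd1, the cytosolic selenoprotein reductase and an NRF2 target, had 130.2, 142 and 139 CPM under normal glucose and 149, 152 and 145 CPM under high glucose, higher in each high glucose culture without passing the test (log2 fold change 0.11, 95% interval -0.0052 to 0.23, adjusted P = 0.134). Mitochondrial Txnrd2 likewise had no overlap and was not called (log2 fold change 0.19, 95% interval 0.027 to 0.35, adjusted P = 0.0741), and Txnrd3 had overlapping groups (log2 fold change -0.023, 95% interval -0.19 to 0.15, adjusted P = 0.850). Thioredoxins and reductases summed to 384 ± 20.8 CPM and 386 ± 6.66 CPM (exact permutation test, two-sided, p = 0.9).

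Of the superoxide dismutases only the mitochondrial enzyme was called. Sod2 (ENSMUSG00000006818, chr17:13006846-13040063), the manganese enzyme of the mitochondrial matrix, had 287, 274 and 279 CPM under normal glucose and 404, 416 and 415 CPM under high glucose. It rose 1.47-fold with little spread in either group (log2 fold change 0.56 ± 0.048 (SE), adjusted P = 1.47e-05), and 16.2% of its 75-base words occur in other annotated genes, 12.9% in AC166110.4. Sod1, the cytosolic copper-zinc enzyme, had 121, 88.6 and 104 CPM under normal glucose and 104, 105 and 108 CPM under high glucose. Its interval reached from -0.19 to 0.22 (log2 fold change 0.014, adjusted P = 0.929), and the sign of the estimate changed in 8 of the alternative settings. Sod3, the secreted enzyme bound to matrix, had 449, 467 and 502 CPM under normal glucose and 468, 455 and 446 CPM under high glucose, with overlapping groups (log2 fold change -0.052, 95% interval -0.18 to 0.073, adjusted P = 0.524). Catalase (Cat), the peroxisomal enzyme that splits hydrogen peroxide, had 80.9, 90.5 and 87.6 CPM under normal glucose and 89.4, 94.4 and 94.1 CPM under high glucose, with the groups overlapping at their edges (log2 fold change 0.10, 95% interval -0.025 to 0.23, adjusted P = 0.206).

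Ranks by CPM per kb of exon depend on the exon length used, the union over all annotated transcripts (1813 bases for Gpx3, 3043 for Prdx1). Ranks with other lengths were not tested. On this scale Gpx3 held rank 1 of the 54 genes in both media, with 355 in normal and 723 in high glucose. Hmox1 held rank 2 in both, with 304 in normal and 168 in high glucose. Gsto1 held rank 3 in normal glucose and rank 10 in high glucose (255 in normal and 89.1 in high glucose). Prdx1 held rank 4 in both (169 in normal and 136 in high glucose), and Txn1 went from rank 5 to rank 3 (148 in normal and 147 in high glucose). The summed CPM of all 54 genes was 6280.5 ± 314 in normal and 6112 ± 123 in high glucose and overlapped (exact permutation test, two-sided, p = 0.4). Gpx3, with the largest rise of the tested genes, was then left out by choice, so the remaining sum is a description without a test. It was 5637 ± 271 in normal and 4802 ± 76.3 in high glucose, with no overlap. This sum kept Gsto1, Hmox1 and Prdx6, whose mean CPM fell from 516 to 180, from 533 to 293 and from 423 to 263. Most of the difference lay in those genes, and a sum that also leaves them out was not computed. Peroxidase CPM summed to 1153 ± 73.2 against 1750 ± 52.4, and that of peroxiredoxins with sulfiredoxin to 1596 ± 139 against 1301 ± 43.3. Gpx3 alone went from a mean of 644 to 1310 CPM, a larger rise than that of the peroxidase sum. Each of the other tested peroxidases had a lower mean in high glucose.

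**Figure D4:**
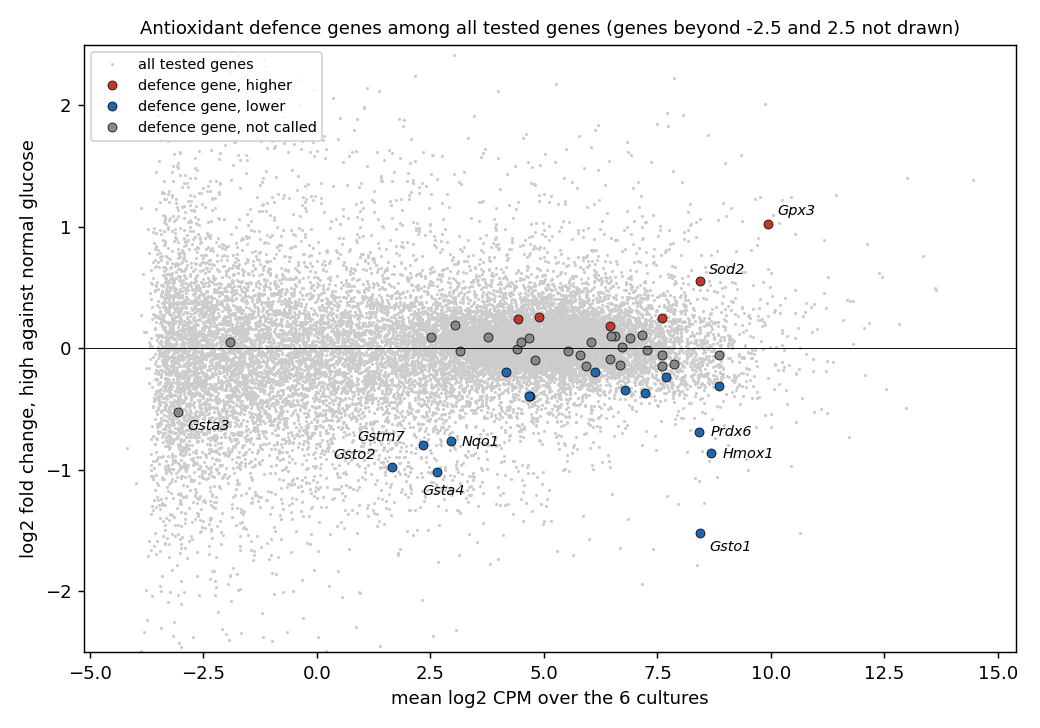
Log2 fold change in high against normal glucose (vertical axis) by mean log2 CPM over the 6 cultures (horizontal axis) for all tested genes (grey) and the 47 tested defence genes (coloured by call). Gpx3, Sod2, Gsto1, Hmox1 and Prdx6 lie at high abundance outside the bulk of genes, and most other defence genes lie within it.

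Normal glucose replicate 1 stood somewhat apart for these genes. It was the highest normal glucose culture for 31 of the 47 tested genes (66.0%), against 38.3% of all tested genes. Txn1, Sod1, Prdx5, Gstp1, Gstp2, Prdx1 and Gsto2 were 20.4% to 25.5% higher in it than in the mean of the other normal glucose cultures. The excess was larger for Gstm3 (29.1%) and Gsta4 (47.6%), and for Gstm6 (47.2%) and Gsta3 (61.2%), which had low counts. The median coefficient of variation was 6.29% in normal and 3.29% in high glucose for the defence genes, and 8.55% and 5.36% for all tested genes. Without that replicate, 5 defence genes rose and 17 fell.

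Outside the 54 genes, 8 lists of related genes were examined, holding 155 genes of which 148 were tested, 27 rose (18.2%) and 34 fell (23.0%), beside 16.9% and 14.5% of all tested genes. Some genes stand in more than one list, and values are given for the 3 largest called changes of each list among genes with a mean log2 CPM of at least 1. Among 14 partners of NRF2 and KEAP1, 3 rose and 1 fell, with a median log2 fold change of -0.011. Bach1, a repressor that competes for the same DNA elements, went from 58.1 ± 5.69 to 86.3 ± 0.438 CPM (log2 fold change 0.57, adjusted P = 1.53e-04). Nfe2l1, an NRF2 relative that controls proteasome genes, rose slightly (log2 fold change 0.21, adjusted P = 0.00584), and Maff, a small MAF protein that pairs with NRF2, fell from 34.2 ± 2.70 to 22.6 ± 0.628 CPM (log2 fold change -0.60, adjusted P = 6.95e-05).

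Of 28 tested other targets of NRF2, 3 rose and 9 fell (median -0.13). The largest changes were falls of Ephx1, the microsomal epoxide hydrolase (log2 fold change -0.83, adjusted P = 9.14e-07), Ftl1, the ferritin light chain (log2 fold change -0.52, adjusted P = 1.73e-04), and Esd, which releases glutathione from formylglutathione (log2 fold change -0.39, adjusted P = 6.21e-04). Among 37 tested genes of glutathione supply and use, 7 rose and 11 fell (median -0.11). Ggt5, which cleaves the glutamyl bond of glutathione conjugates outside the cell, rose from 70.8 ± 1.10 to 177 ± 7.21 CPM (log2 fold change 1.32, adjusted P = 7.12e-08), and Anpep, an aminopeptidase that splits the released dipeptide, rose as well (log2 fold change 1.003, adjusted P = 7.55e-07). Chac1, which degrades glutathione inside the cell, fell (log2 fold change -0.77, adjusted P = 4.71e-04).

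Among 19 genes that supply NADPH, 3 rose and 4 fell (median 0.023). The mitochondrial enzymes Mthfd2 (log2 fold change -0.42, adjusted P = 1.09e-04) and Me2 (log2 fold change -0.41, adjusted P = 1.48e-04) fell, while mitochondrial Idh2 rose (log2 fold change 0.36, adjusted P = 5.45e-04). Other thioredoxin-related genes numbered 19 tested, of which 2 rose and 6 fell (median -0.038). Txnip, a glucose-induced protein that binds and inhibits thioredoxin, rose (log2 fold change 1.06, adjusted P = 1.70e-07) while Txn1 was not called. Msrb2, a mitochondrial methionine sulfoxide reductase, fell (log2 fold change -0.50, adjusted P = 0.00318), and Sesn1, a sestrin, rose (log2 fold change 0.49, adjusted P = 1.86e-04).

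Gpx1, Gpx3 and Gpx4 carry selenocysteine, so genes that supply selenium were counted too: of 11, 2 rose and 1 fell (median 0.089). Selenop, the secreted selenium carrier, rose from 333 ± 25.5 to 478 ± 28.6 CPM (log2 fold change 0.52, adjusted P = 2.60e-04). Sepsecs, which makes the selenocysteine transfer RNA, rose (log2 fold change 0.30, adjusted P = 0.00491), and Sephs2, which makes the selenium donor, fell (log2 fold change -0.18, adjusted P = 0.0425). Of 16 other selenoprotein genes tested 3 rose and 5 fell (median -0.12), with Dio2, a deiodinase, higher (log2 fold change 0.70, adjusted P = 1.31e-04) and nuclear Selenoh lower (log2 fold change -0.65, adjusted P = 3.27e-04). Around haem and iron, 5 of 18 genes rose and 2 fell (median 0.045). The falls were Ftl1 and Tfrc, the transferrin receptor (log2 fold change -0.56, adjusted P = 3.18e-04), and Slc40a1, the iron exporter ferroportin, rose (log2 fold change 0.31, adjusted P = 0.0163). Where 5 or fewer genes of a list rose, or 5 or fewer fell, the rest of those called genes are named here, after their values were seen. They were Nfe2l3, Abcc4, Slc6a9, Htatip2, Me3, Aldh1l1, Dio3, Slc11a2, Aco1, Fech and Cpox among the rises. Among the falls they were Taldo1, Me1, Selenow, Selenom and Selenof.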

How the data were processed

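The deposited values are raw counts per gene and sample, which the authors made with StringTie after HISAT2 alignment to GRCm38 of reads trimmed by Trimmomatic. Versions, annotation release and use of strand are not given in the sources used here. The labels name TRIzol and DNBSeq, whereas the methods name a QIAGEN kit and an Illumina HiSeq. Symbols and positions came from GENCODE M21 (260 of 55487 identifiers had none and held 0.0069% of counts). Genes with a count of 10 in enough samples and 15 in total (filterByExpr) were fitted in edgeR 4.0.16 (R 4.3.3) with TMM scaling, the quasi-likelihood test and Benjamini-Hochberg adjustment over all 19015 tested genes, with a threshold of 0.05. SEs came from the test statistic, CPM is the count scaled by TMM to a common library total, and the procedure was tested on simulated data. The 95% intervals of log2 fold changes include the spread between cultures, whereas floors cover counting error only. Alternatives used DESeq2 1.42.0, other scalings, filters and thresholds, halved counts, GC and length trends removed (mgcv 1.9.3), a replicate block and each sample left out. Genes were given with every value if called, with a mean log2 CPM of at least 1 and no overlap, or if in a fixed core. Of each list outside them, the 3 largest called changes at a mean log2 CPM of at least 1 were named. Members and lists were chosen with earlier results of these data known.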

Additional observations from a re-analysis of the deposited data

How the results depend on the processing

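Of 589 combinations of 31 named genes and 19 alternative settings, 517 kept direction and side of the threshold, 46 kept direction but were no longer called, 12 became called and 14 changed sign. All sign changes concerned genes that were not called. With library totals as the scale, 2 defence genes rose and 23 fell (median log2 fold change -0.17), and of all genes 1819 rose and 4884 fell against 3212 and 2757 with TMM. The share of lower calls went from 46.2% to 72.9%, and to 56.5% with upper quartile scaling, where 5 defence genes rose and 17 fell. On library totals the estimates of Keap1 (-0.012), Gclm (-0.032), Txnrd1 (-0.0014), Cat (-0.013) and Sod1 (-0.10) became negative. Sod1 was also negative with upper quartile scaling (-0.030), no filter (-0.0058), a minimum count of 50 (-0.011), halved counts (-0.0055), GC and length trends removed (-0.0043), and without normal glucose replicate 2 (-0.10) or high glucose replicate 3 (-0.019), and its estimates with 1 culture left out ranged from -0.10 to 0.11. Txn1 was positive with those trends removed (0.083) and without normal glucose replicate 1 (0.089), and ranged from -0.10 to 0.089 with 1 culture left out. The causes were not tested. At an adjusted P value under 0.01, 1946 of all genes were higher and 1671 lower. A minimum fold of 1.5 left 895 and 1165 of all genes, with 1 defence gene higher (Gpx3) and 7 lower.

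Leaving out 1 culture gave 4 to 5 higher and 11 to 17 lower defence genes, medians of -0.10 to -0.044, and 1988 to 3149 higher and 2048 to 3065 lower genes in all. The lowest counts of higher genes came without high glucose replicate 3 (1988) and high glucose replicate 1 (2010), and the cause was not tested. Nfe2l2 was called lower in 8 settings, those named above and upper quartile scaling, library totals, a minimum count of 50, halved counts and without high glucose replicate 2. Gclc was called lower without normal glucose replicate 1 (adjusted P = 0.0335), and on library totals Gclc, Srxn1 and Sod3 were called lower as well. Same-numbered cultures were not shown to pair: their deviations correlated at -0.065, 0.040 and 0.045. With the replicate number as a block, 6 defence genes rose and 14 fell, Gstk1 alone losing its call, and 2909 and 2418 genes were called in all.

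Low counts limit what can be said of some genes: 7 of the 54 genes could not be tested, and Gsta3 and Gstm6 have intervals too wide to set a direction.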
